A study of Mus musculus with 12 samples.

Results

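The genes described here are 10 genes that mark myofibroblasts and the matrix of a healing wound, among the 53379 gene IDs counted in whole mouse skin. They were taken as a named list: Acta2, Tagln, Cnn1, Myl9 and Tpm2 encode parts of the contractile actin apparatus, Cthrc1, Postn, Tnc and Fn1 encode secreted or matrix proteins, and Adam12 encodes a membrane-anchored metalloprotease. All 10 were found by their Ensembl ID and passed the filter on low counts.

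Fibroblasts that enter a wound can become myofibroblasts, which assemble smooth muscle actin into stress fibres, pull on the wound and lay down provisional matrix. Transforming growth factor beta and mechanical tension drive this state, and serum response factor (SRF) with its cofactors switches on many of the contractile genes through a DNA element called the CArG box. The same contractile genes are also used by the smooth muscle of vessels and of the hair erector muscle, so in whole skin they do not mark myofibroblasts alone.

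RNA sequencing counts were available from 12 libraries of skin from mice aged 3 months, 3 libraries in each of 4 groups. The injured Nf1-KO group was collected 14 days after injury and is set beside uninjured Nf1-KO skin; the injured control group was collected at the same time and is set beside uninjured control skin. Nf1-KO mice carried Prss56Cre, the R26tdTom reporter and Nf1flox/-, and control mice carried Prss56Cre and R26tdTom without the Nf1 alleles, so Cre and the reporter were in every group. All mice had the strain label C57BL/6 & B6D2. The series compares the response of skin to injury with and without Nf1, which encodes neurofibromin, a brake on Ras signalling.

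The Prss56 promoter drives Cre in boundary cap cells, a transient population at the nerve roots, according to the title of the series, while the null Nf1 allele is in every cell of the Nf1-KO mice. Whole skin also holds cells outside that Cre lineage. The labels do not say whether the 3 libraries of a group came from separate animals, so the p-values measure the spread between libraries.

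The libraries held 8817013 to 16809687 counts each. Values below are CPM, that is counts scaled to a common library size, after trimmed-mean (TMM) scaling, and levels of different genes are compared only per kb of exon. Nf1 itself, before that scaling, had 10.1, 8.14 and 14.1 CPM in injured Nf1-KO skin and 9.94, 11.05 and 8.96 CPM in uninjured Nf1-KO skin, against 14.7, 8.98 and 10.6 CPM in injured control skin and 17.2, 13.7 and 9.41 CPM in uninjured control skin. The genotypes overlapped in both skin states (adjusted p = 0.989 and 0.884, edgeR), so the counts of whole skin do not check the genotype labels. Xist, the RNA of the inactive X chromosome, had 436 to 627 CPM in the 6 injured libraries and 0.709 to 2.95 CPM in the 6 uninjured ones, and the Y-linked Ddx3y had 0 to 0.0595 CPM in injured and 68.2 to 93.3 CPM in uninjured libraries. Sex and injury therefore cannot be told apart in any comparison of injured with uninjured skin. Reads on 1744 genes of receptor families of the nose and vomeronasal organ, which skin is not known to need, gave a background of 0.00228 to 0.0532 CPM per kb in injured and 0.0953 to 0.337 CPM per kb in uninjured libraries. Keratinocyte markers were abundant in every library, with 16108 to 50118 CPM summed over 10 genes.

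Of the 10 genes, 8 were higher in injured than in uninjured Nf1-KO skin, where 19.1% of all genes tested were higher, and 1 was lower, where 18.4% were lower. In control skin 7 were higher and 1 was lower, where 22.8% and 32.5% of all genes tested were. The calls are at an adjusted p under 0.05 in edgeR's quasi-likelihood test over 23635 genes. The groups did not overlap for the same 8 higher and 1 lower genes in Nf1-KO skin (23.6% and 27.9% of all genes) and for 7 higher and 1 lower genes in control skin (25.8% and 36.6%). The median log2 fold change of the 10 genes was 2.74 in Nf1-KO and 2.38 in control skin, beside -0.09 and -0.21 over all genes tested. The genes were chosen with earlier results of these data known, so their excess over all genes is not an independent test. Bulk counts do not tell a larger number of expressing cells from more RNA in each cell. These 2 comparisons use different libraries but share 1 estimate of the spread.

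**Figure D1:**
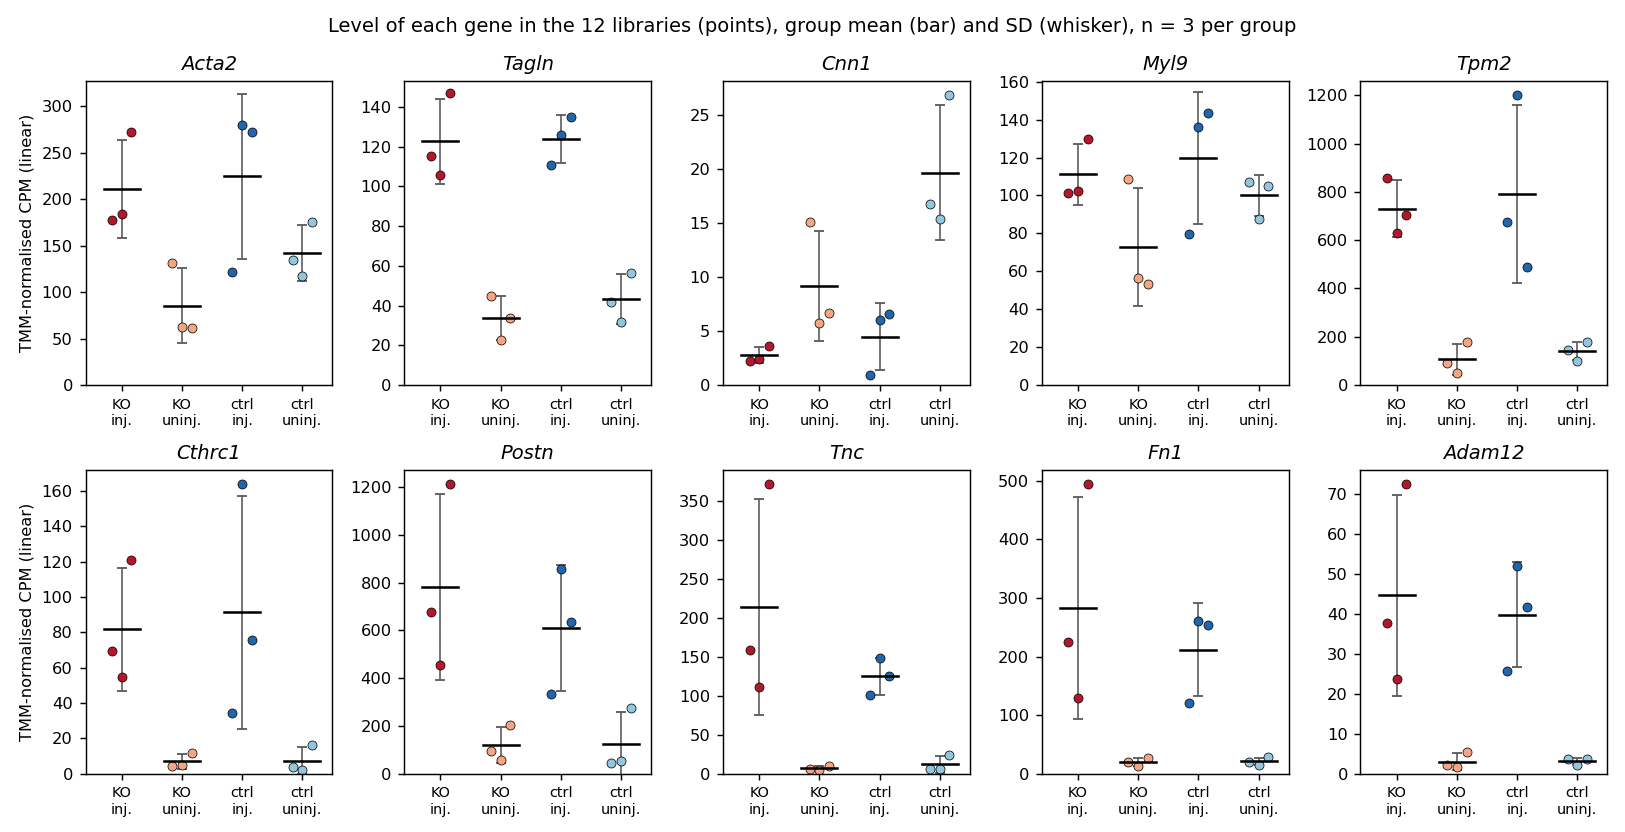
Each panel plots 1 gene in TMM-normalised CPM on a linear axis, with a point for each library, a bar at the group mean and a whisker for the SD (n = 3 per group). Tpm2, Tagln, the 4 matrix genes and Adam12 lie higher in both injured groups, Cnn1 lies lower in them, and Myl9 overlaps between injured and uninjured skin.

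Among the contractile genes, 3 of 5 rose with injury in Nf1-KO skin and 2 of 5 in control skin, while 1 of 5 fell in both. Of all genes tested, 19.1% were higher and 18.4% lower in Nf1-KO skin, and 22.8% and 32.5% in control skin. The count of lower genes is therefore not set apart from all genes. Acta2, which encodes smooth muscle alpha-actin and is the usual marker of myofibroblasts, lies on chr19:34241090-34255590 (mm10; ENSMUSG00000035783). It had 177, 184 and 272 CPM in injured Nf1-KO libraries, against 132, 63.0 and 61.6 CPM in uninjured ones. In control skin it had 122, 280 and 272 CPM in injured libraries, against 134, 117 and 175 CPM in uninjured ones. The Nf1-KO groups did not overlap, whereas 1 injured control library lay among the uninjured ones. The log2 fold change was 1.30 (SE 0.35, adjusted p = 0.0096) in Nf1-KO skin and 0.66 (SE 0.34, adjusted p = 0.114) in control skin. Without the second uninjured Nf1-KO library the adjusted p in Nf1-KO skin was 0.0501. The adjusted p in control skin was 0.0192 without the first injured control library, the lowest of its group, and 0.0495 without the first uninjured Nf1-KO library. With no filter on low counts Acta2 was also called in control skin, with a log2 fold change of 0.85 (adjusted p = 0.000802).

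Acta2 shares much of its coding sequence with other actins, and how the authors counted reads that match several genes is not given in the sources used here. Acta1, the skeletal muscle actin, was looked at for this reason. It had 2289, 2075 and 1556 CPM in injured and 49.9, 42.3 and 181 CPM in uninjured Nf1-KO libraries, and 1514, 4389 and 854 CPM in injured and 329, 229 and 366 CPM in uninjured control libraries. In the first injured control library Acta2 had its lowest injured value and Acta1 had 1514 CPM. The part of reads shared between actins in the Acta2 counts was not tested.

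Tagln, which encodes the actin-binding protein transgelin (SM22), lies on chr9:45929619-45936058 (mm10; ENSMUSG00000032085). It had 115, 106 and 147 CPM in injured and 44.9, 22.8 and 33.5 CPM in uninjured Nf1-KO libraries. Its levels in control skin were 111, 126 and 135 CPM in injured and 41.6, 31.5 and 56.5 CPM in uninjured libraries. Every injured library lay above every uninjured one. The log2 fold change was 1.86 (SE 0.26, adjusted p = 4.86e-05) in Nf1-KO and 1.52 (SE 0.25, adjusted p = 0.000229) in control skin, and the call held in every alternative run.

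Part of what is counted as Tagln cannot be assigned to a strand. Tagln shares 1241 exonic bases, 62.4% of its exonic length, with Gm48529, an annotated antisense gene, and the library kit does not mark strand. Gm48529 had counts equal to 80.9% to 91.7% of those of Tagln in each of the 12 libraries. Its log2 fold change with injury was 1.76 (adjusted p = 8.54e-05) in Nf1-KO and 1.44 (adjusted p = 0.000348) in control skin. Reads of the 2 genes cannot be told apart in these counts.

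Cnn1, which encodes calponin, an actin-binding protein of mature smooth muscle, was the gene that moved the other way. It lies on chr9:22099216-22109630 (mm10; ENSMUSG00000001349). It had 2.24, 2.40 and 3.61 CPM in injured Nf1-KO libraries, from 34 to 42 reads, against 15.1, 5.75 and 6.69 CPM in uninjured ones. Its control values were 0.889, 6.02 and 6.55 CPM in injured libraries, from 10 to 98 reads, against 16.7, 15.4 and 26.8 CPM in uninjured ones. Neither pair of groups overlapped. Cnn1 was 3.34-fold lower in injured Nf1-KO skin (log2 fold change -1.74, SE 0.57, adjusted p = 0.0289) and 4.32-fold lower in injured control skin (-2.11, SE 0.55, adjusted p = 0.00588). The call in Nf1-KO skin was lost without the first uninjured library (adjusted p = 0.103) and without the first, the second or the third injured library (0.0914, 0.0755 and 0.0501). With ribosomal RNA-like reads as a covariate the adjusted p was 0.268 in Nf1-KO and 0.227 in control skin, with log2 fold changes of -1.05 and -1.21. Those reads made up 3.84% to 11.5% of counts in injured and 1.94% to 5.16% in uninjured libraries, and their part in the result was not tested further.

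Among smooth muscle and pericyte markers, 2 genes of mature smooth muscle were lower in injured skin of both genotypes. Myh11, the smooth muscle myosin heavy chain, had 7.50, 7.41 and 15.2 CPM in injured and 40.7, 21.1 and 19.0 CPM in uninjured Nf1-KO libraries. It had 6.13, 19.5 and 9.62 CPM in injured and 39.3, 44.2 and 83.2 CPM in uninjured control libraries. Its log2 fold change was -1.43 (adjusted p = 0.0364) in Nf1-KO and -2.23 (adjusted p = 0.00259) in control skin. Myocd, the smooth muscle cofactor of SRF, averaged 0.566 ± 0.407 CPM in injured and 3.23 ± 0.631 CPM in uninjured Nf1-KO skin, and 0.826 ± 0.211 CPM in injured and 5.36 ± 1.55 CPM in uninjured control skin (SD, n = 3 each). It fell by 2.53 and 2.67 on the log2 scale (adjusted p = 0.00123 and 0.000428). Across the whole list of 15 markers, 8 were higher and 2 lower in both genotypes. Among all genes tested, 19.1% were higher and 18.4% lower in Nf1-KO skin, and 22.8% and 32.5% in control skin. The higher markers of the list included Rgs5, a marker of pericytes, with log2 fold changes of 2.32 and 1.75 in Nf1-KO and control skin (adjusted p = 4.39e-06 and 5.95e-05). Mcam had 2.20 and 1.19 (adjusted p = 1.79e-05 and 0.00148). Not every smooth muscle gene fell: Smtn was called higher, with 0.74 and 0.54 (adjusted p = 0.00649 and 0.0226). Actg2 had 0.15 and -0.62 and Lmod1 had 0.01 and 0.09 in Nf1-KO and control skin, and neither was called. The summed level of the list was 728 to 864 CPM in injured and 300 to 398 CPM in uninjured Nf1-KO skin, and 641 to 1097 CPM in injured and 414 to 553 CPM in uninjured control skin, with no marker at 0 in every library. The list includes Des, with 198 to 225 CPM in injured and 24.4 to 48.8 CPM in uninjured Nf1-KO skin. In control skin Des had 89.7 to 517 CPM in injured and 63.2 to 101 CPM in uninjured libraries. The sum of 1097 CPM was in the second injured control library, which had the highest skeletal muscle marker sum, 11498 CPM. The part of smooth muscle and pericytes in the contractile results was not tested.

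Myl9, which encodes a regulatory light chain of smooth and non-muscle myosin, was not called in either genotype. It lies on chr2:156775420-156781658 (mm10; ENSMUSG00000067818). It had 101.1, 102 and 130 CPM in injured and 108, 56.5 and 53.4 CPM in uninjured Nf1-KO libraries. In control skin it had 79.9, 136 and 143 CPM in injured and 107, 87.8 and 105 CPM in uninjured libraries, and the groups overlapped in both genotypes. The log2 fold change was 0.61 (95% interval 0.04 to 1.18, adjusted p = 0.0835) in Nf1-KO and 0.26 (-0.31 to 0.83, adjusted p = 0.425) in control skin. Without the first uninjured Nf1-KO library, the highest of its group, the value in Nf1-KO skin was 0.98 with an adjusted p of 0.00927. With all libraries and no filter on low counts it was 0.65 with an adjusted p of 0.0197.

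Tpm2, which encodes beta-tropomyosin, rose most among the contractile genes. It lies on chr4:43514711-43523765 (mm10; ENSMUSG00000028464). It had 858, 630 and 705 CPM in injured and 92.7, 49.0 and 178 CPM in uninjured Nf1-KO libraries. Its levels in control skin were 677, 1201 and 490 CPM in injured and 145, 102 and 177 CPM in uninjured libraries. The lowest injured library lay above the highest uninjured one in each genotype. Tpm2 was 6.87-fold higher in injured Nf1-KO skin (log2 fold change 2.78, SE 0.44, adjusted p = 0.000309) and 5.60-fold higher in injured control skin (2.48, SE 0.43, adjusted p = 0.000499). Both calls held in every alternative run.

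Tpm2 is made by skeletal muscle as well as by contractile cells of other kinds, and its isoforms are not separated in counts per gene. Skeletal muscle markers rose with it: 12 of 12 were called higher in Nf1-KO and 11 of 12 in control skin (19.1% and 22.8% of all genes). Their summed level was 7304, 5041 and 5206 CPM in injured and 183, 148 and 649 CPM in uninjured Nf1-KO libraries, and 4846, 11498 and 2822 CPM in injured and 1263, 799 and 1198 CPM in uninjured control libraries. In injured Nf1-KO skin, uninjured Nf1-KO skin and injured control skin the library with the highest Tpm2 also had the highest summed skeletal muscle markers. Uninjured control skin was the exception, with the highest Tpm2 in the third and the highest marker sum in the first library. No skeletal muscle marker was at 0 in every library. The part of skeletal muscle in the Tpm2 result was not tested.

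**Figure D2:**
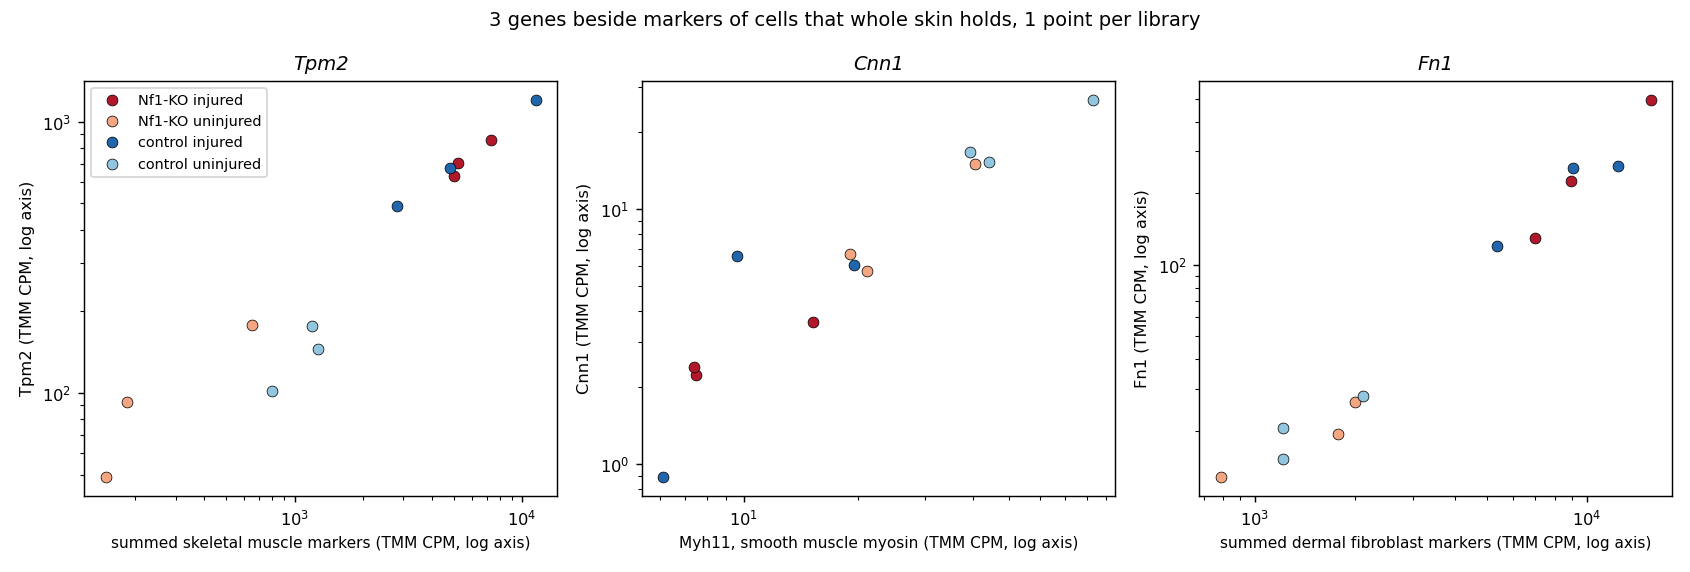
Each point is 1 library, with Tpm2, Cnn1 and Fn1 on the vertical axes and marker levels on the horizontal axes (TMM CPM, log axes). Tpm2 is highest in the injured control library with 11498 CPM of skeletal muscle markers, Cnn1 is highest in the uninjured control library with 83.2 CPM of Myh11, and Fn1 is highest in the injured Nf1-KO library with 15622 CPM of dermal fibroblast markers. The dermal fibroblast markers include the collagen genes Col1a1 and Col1a2.

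Because the contractile genes moved by different amounts, their proportions changed. Per kb of exon, Tpm2 made up 43.8% to 56.6% of the summed contractile genes in injured and 14.9% to 39.6% in uninjured Nf1-KO libraries. In control skin its share was 34.7% to 57.1% in injured and 18.8% to 22.5% in uninjured libraries. Cnn1 made up 0.157% to 0.239% in injured and 1.58% to 2.58% in uninjured Nf1-KO libraries, and 0.0787% to 0.492% in injured and 2.66% to 3.64% in uninjured control libraries. The ratio of Acta2 to Cnn1 per kb was 98.5, 95.3 and 93.7 in injured and 10.9, 13.7 and 11.5 in uninjured Nf1-KO libraries. It was 170, 57.9 and 51.8 in injured and 9.99, 9.51 and 8.14 in uninjured control libraries. The injured and uninjured ratios did not overlap in either genotype, and since each is a ratio within a library it does not depend on the scaling between libraries.

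**Figure D3:**
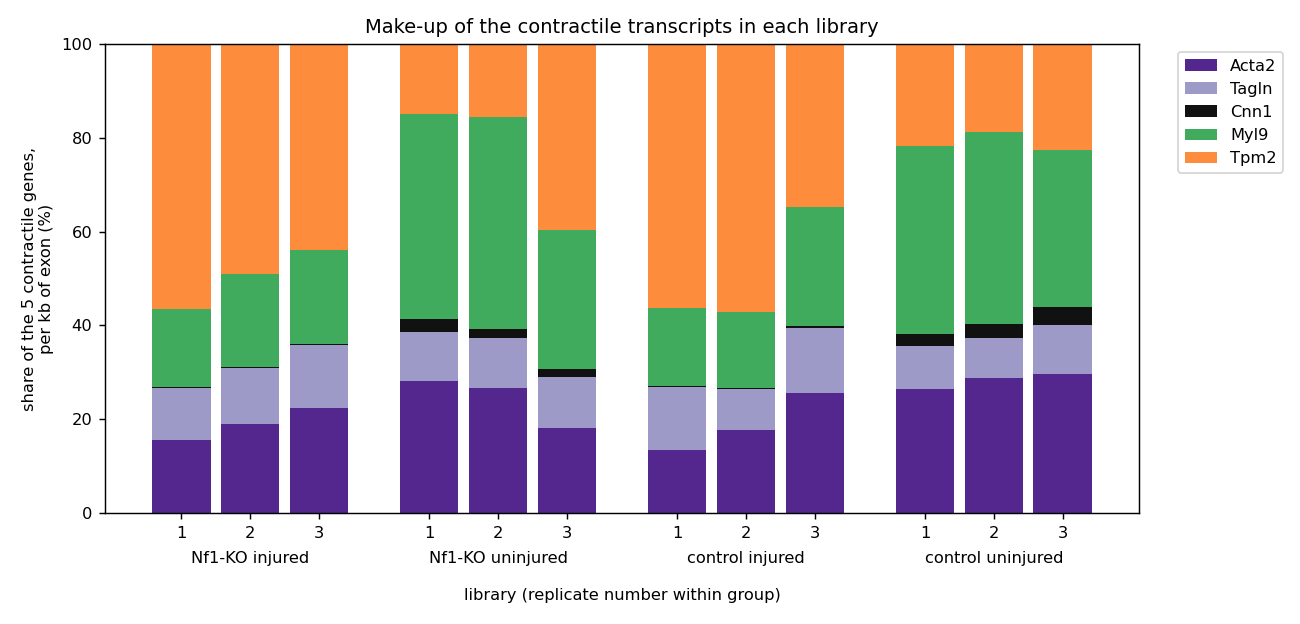
Each bar is 1 library and shows the share of Acta2, Tagln, Cnn1, Myl9 and Tpm2 in their summed level per kb of exon (%). Tpm2 takes 34.7% to 57.1% of injured control libraries and the Cnn1 band, at most 0.492% in injured skin, is a thin line there and wider in uninjured libraries, where it is 1.58% to 3.64%.

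The start regions of 4 contractile genes are shown because these genes share an actin function and moved differently. Tpm2 was called higher and Cnn1 lower in both genotypes. Acta2 was called higher in Nf1-KO skin but not in control skin, and Myl9 was called in neither. The windows run from 250 bases before to 50 bases after the annotated start and come from RefSeq (GRCm38.p6): Acta2 chr19:34255324-34255623 on the minus strand, Myl9 chr2:156775214-156775513 on the plus strand, Cnn1 chr9:22099003-22099302 on the plus strand and Tpm2 chr4:43523505-43523804 on the minus strand. Capitals mark CArG boxes, either the full form (CC, 6 bases that are A or T, then GG) or a form in which 1 of those 6 bases is C or G; both strands were searched.
Acta2: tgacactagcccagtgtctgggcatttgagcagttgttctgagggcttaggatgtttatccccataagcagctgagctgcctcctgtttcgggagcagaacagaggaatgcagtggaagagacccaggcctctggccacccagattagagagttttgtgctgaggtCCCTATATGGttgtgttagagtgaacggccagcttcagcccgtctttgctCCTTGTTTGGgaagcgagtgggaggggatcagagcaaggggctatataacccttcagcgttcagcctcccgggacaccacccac
Myl9: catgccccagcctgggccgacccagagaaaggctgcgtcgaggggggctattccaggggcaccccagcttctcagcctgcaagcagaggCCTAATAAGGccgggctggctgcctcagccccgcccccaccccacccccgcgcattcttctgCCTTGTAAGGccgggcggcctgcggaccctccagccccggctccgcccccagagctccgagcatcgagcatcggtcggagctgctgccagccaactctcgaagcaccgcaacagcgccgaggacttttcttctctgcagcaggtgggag
Cnn1: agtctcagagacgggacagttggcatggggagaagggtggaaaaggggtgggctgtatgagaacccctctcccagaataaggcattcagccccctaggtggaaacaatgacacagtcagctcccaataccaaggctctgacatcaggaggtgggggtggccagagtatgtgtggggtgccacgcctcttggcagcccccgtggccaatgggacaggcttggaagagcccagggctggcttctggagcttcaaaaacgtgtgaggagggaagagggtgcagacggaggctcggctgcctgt
Tpm2: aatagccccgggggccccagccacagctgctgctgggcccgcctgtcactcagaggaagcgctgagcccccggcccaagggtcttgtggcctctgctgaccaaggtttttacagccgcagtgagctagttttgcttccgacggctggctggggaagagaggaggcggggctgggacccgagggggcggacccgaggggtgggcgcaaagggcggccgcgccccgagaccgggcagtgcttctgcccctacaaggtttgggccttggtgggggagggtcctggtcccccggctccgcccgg
Myl9 held 1 full CArG box, at -161 to -152 from the start, and 1 of the looser form at -99 to -90. Acta2 held 2 of the looser form, at -84 to -75 and -34 to -25. The full form was present in 1.63% and the looser form in 8.5% of the 32851 promoter windows of the same length in the table. Neither form was in the Cnn1 or the Tpm2 window, nor in the windows of Postn and Tnc. In all, 6 of the 10 genes were matched to 8 windows. A match is a run of letters and not a measured binding site.

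All 4 secreted and matrix genes rose with injury in both genotypes, where 19.1% (Nf1-KO) and 22.8% (control) of all genes tested did. Cthrc1, which encodes a secreted collagen triple helix repeat protein of activated fibroblasts, lies on chr15:39076932-39087121 (mm10; ENSMUSG00000054196). It had 69.2, 55.0 and 121 CPM in injured and 4.30, 4.83 and 11.8 CPM in uninjured Nf1-KO libraries. Its control values were 34.5, 164 and 75.8 CPM in injured and 3.86, 2.15 and 16.3 CPM in uninjured libraries. Injured control libraries thus differed among themselves by several times, and no injured library reached down to an uninjured one. The log2 fold change was 3.55 (SE 0.89, adjusted p = 0.0142) in Nf1-KO and 3.59 (SE 0.88, adjusted p = 0.00792) in control skin. The call in Nf1-KO skin was lost without the second uninjured library (adjusted p = 0.061), and the call in control skin without the first and second uninjured libraries together (adjusted p = 0.0835).

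Postn encodes periostin, a matrix protein that binds integrins and collagen, and lies on chr3:54361109-54391037 (mm10; ENSMUSG00000027750). It had 677, 455 and 1212 CPM in injured and 95.3, 58.8 and 206 CPM in uninjured Nf1-KO libraries. In control skin it had 332, 858 and 636 CPM in injured and 45.0, 53.3 and 277 CPM in uninjured libraries. The third uninjured library was the highest of its group in each genotype and the injured libraries lay above it. The log2 fold change was 2.70 (SE 0.82, adjusted p = 0.0289) in Nf1-KO and 2.28 (SE 0.80, adjusted p = 0.0365) in control skin. These were the least stable calls among the matrix genes. In Nf1-KO skin the call was lost without the first or the second uninjured library (adjusted p = 0.0800 and 0.0952) and without the first or the third injured library (0.0633 and 0.0837). For control skin it was lost without the first or the second uninjured library (0.0684 and 0.10) and without the second or the third injured library (0.0934 and 0.0685). Without the first and second uninjured control libraries together the log2 fold change in control skin was 1.24 (adjusted p = 0.230). When the fit took in ribosomal RNA-like reads the adjusted p was 0.0953 in Nf1-KO and 0.203 in control skin. With no filter on low counts it was 0.0617 in Nf1-KO and 0.0550 in control skin, and with the compared groups alone it was 0.0927 in control skin.

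Tnc encodes tenascin-C, a matrix protein that appears transiently at wound edges, and lies on chr4:63959785-64047015 (mm10; ENSMUSG00000028364). It had 159, 111 and 372 CPM in injured and 6.27, 5.06 and 9.67 CPM in uninjured Nf1-KO libraries. Its levels in control skin were 102, 149 and 126 CPM in injured and 5.45, 6.68 and 24.6 CPM in uninjured libraries. Injured and uninjured libraries were far apart in both genotypes. Tnc was 30.6-fold higher in injured Nf1-KO skin (log2 fold change 4.94, SE 0.70, adjusted p = 0.000556), the largest value among the 10 genes, and 10.1-fold higher in injured control skin (3.34, SE 0.65, adjusted p = 0.00202). An opposite-strand transcript, 8030451A03Rik, shares 176 exonic bases with it and had 4 to 53 counts per library, against 58 to 4322 for Tnc.

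Fn1 encodes fibronectin, the adhesive protein of the provisional wound matrix, and lies on chr1:71585520-71653200 (mm10; ENSMUSG00000026193). It had 225, 129 and 495 CPM in injured and 19.4, 12.7 and 26.5 CPM in uninjured Nf1-KO libraries. Its control values were 120, 260 and 255 CPM in injured and 20.5, 15.2 and 28.0 CPM in uninjured libraries. The groups did not overlap in either genotype. Fn1 was 14.5-fold higher in injured Nf1-KO skin (log2 fold change 3.86, SE 0.53, adjusted p = 0.00025) and 9.96-fold higher in injured control skin (3.32, SE 0.52, adjusted p = 0.000451). The calls of Tnc and Fn1 held in every alternative run.

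Adam12, on chr7:133883199-134232146 (mm10; ENSMUSG00000054555), had 37.6, 23.8 and 72.4 CPM in injured and 2.06, 1.61 and 5.42 CPM in uninjured Nf1-KO libraries. In control skin it had 25.7, 51.8 and 41.6 CPM in injured and 3.57, 2.30 and 3.60 CPM in uninjured libraries. The groups were far apart in both genotypes. The log2 fold change was 3.89 (SE 0.52, adjusted p = 0.000139) in Nf1-KO and 3.65 (SE 0.51, adjusted p = 0.000179) in control skin.

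The uninjured level of Adam12 lay close to the background of each library. Per kb of exon, and scaled in the same way, Adam12 had 0.195, 0.152 and 0.513 CPM in uninjured Nf1-KO libraries, where the background was 0.119, 0.187 and 0.119. In uninjured control libraries it had 0.338, 0.218 and 0.340 CPM per kb, where the background was 0.279, 0.228 and 0.0933. The second uninjured library of each genotype was thus below its own background, while in injured libraries Adam12 lay at least 114 times above it. When the background was taken off every gene, a step added after the data were seen, the log2 fold change was 4.66 (adjusted p = 0.0126) in Nf1-KO and 4.98 (adjusted p = 0.00733) in control skin. Those folds are set against libraries with few or no reads left and depend on the small constant that the fit adds. For the other 9 genes the lowest ratio to background in an uninjured library was 2.52, for Tnc.

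**Figure D4:**
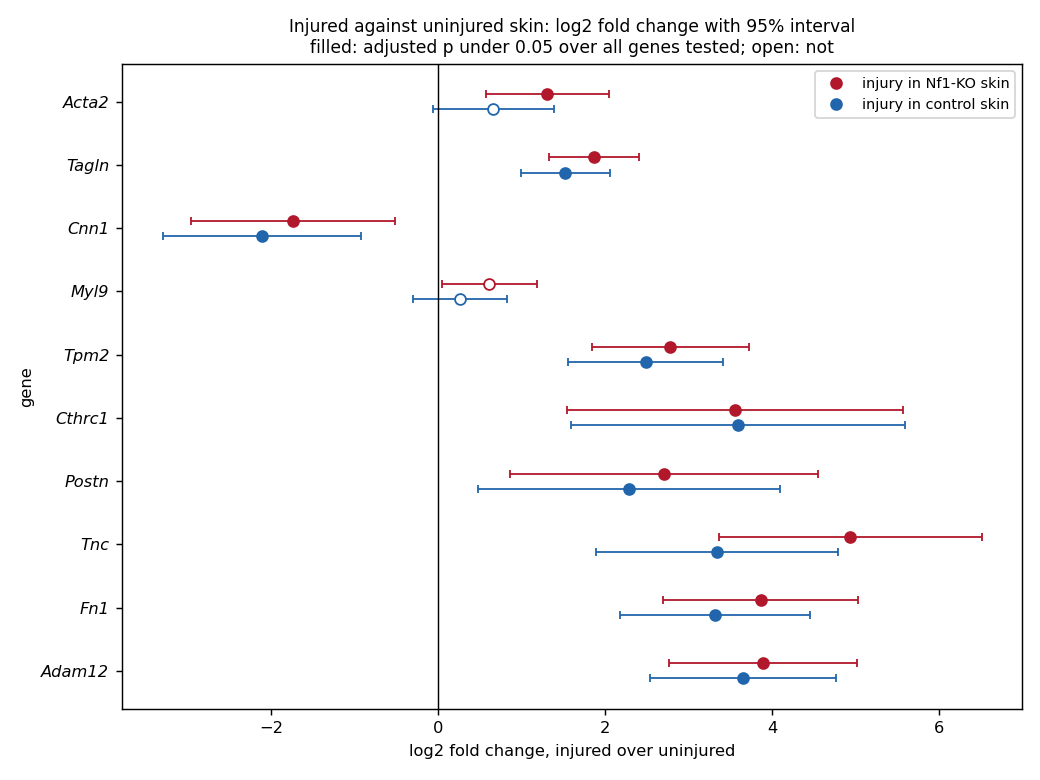
Points are log2 fold changes of injured over uninjured skin with 95% intervals for the 10 genes, with Nf1-KO skin above control skin in each row; filled points passed an adjusted p under 0.05. Tnc has the highest value, 4.94 in Nf1-KO skin, and Cnn1 is the gene on the negative side in both genotypes.

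Markers of dermal fibroblasts rose together with the matrix genes. All 12 of 12 were called higher in both genotypes, where 19.1% (Nf1-KO) and 22.8% (control) of all genes tested were. Their median log2 fold change was 2.89 in Nf1-KO and 2.67 in control skin. Their summed level was 8945, 6999 and 15622 CPM in injured and 1784, 788 and 2000 CPM in uninjured Nf1-KO libraries, and 5378, 12463 and 9068 CPM in injured and 1213, 1214 and 2115 CPM in uninjured control libraries. That sum includes the matrix genes Col1a1 and Col1a2, which reached 3904 and 7761 CPM in injured Nf1-KO skin, where Pdgfra reached 123 CPM. It is therefore weighted to collagen and is not a measure of fibroblasts apart from matrix. No fibroblast marker was at 0 in every library. Cthrc1, Postn, Tnc, Fn1 and Adam12 were all highest in the same library as this sum in the 4 groups: the third injured Nf1-KO, the third uninjured Nf1-KO, the second injured control and the third uninjured control library. Pdgfra alone was highest in the same libraries, with 123, 9.76, 76.2 and 8.52 CPM. For Adam12 in uninjured control skin the order was nearly a tie, with 3.60 CPM in the third and 3.57 CPM in the first library. The part of the number of fibroblasts in the matrix result was not tested. Acta2 had log2 fold changes of 1.30 in Nf1-KO and 0.66 in control skin. Those of Pdgfra, a general fibroblast marker, were higher, at 3.52 and 2.98. Acta2 is also used by smooth muscle, so these folds do not give its level per fibroblast.

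The 5 contractile genes shared those highest libraries in part. In injured Nf1-KO skin the third library was highest for Acta2, Tagln, Cnn1 and Myl9, while the first was highest for Tpm2. In uninjured Nf1-KO skin the first library was highest for those 4 genes and the third for Tpm2. In injured control skin the second library was highest for Acta2 and Tpm2 and the third for Tagln, Cnn1 and Myl9. In uninjured control skin the third library was highest for Acta2, Tagln, Cnn1 and Tpm2 and the first for Myl9, and the second was lowest for all 5.

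Levels were compared between genes per kb of exon. Tpm2 stood above every other of the 10 genes in both injured groups, with 251 ± 40.0 CPM per kb in injured Nf1-KO and 271 ± 127 CPM per kb in injured control skin (SD, n = 3 each). Acta2, Myl9, Postn, Tagln and Cthrc1 followed, then Tnc and Fn1, and among these 7 genes the ranges of neighbours in the order overlapped. Adam12 and, last, Cnn1 each stood apart from the gene above. In uninjured skin Myl9 had the highest mean, 62.6 ± 26.6 CPM per kb in Nf1-KO and 86.1 ± 9.21 CPM per kb in control skin, with a range that overlapped that of Acta2, the next gene. The range of Acta2 in turn overlapped that of Tpm2. Tpm2 stood clear of Tagln, the next gene, in uninjured control but not in uninjured Nf1-KO skin. Adam12 was the lowest, at 0.287 ± 0.197 and 0.299 ± 0.0701 CPM per kb, and did not overlap the next gene, Tnc. Cnn1 thus ranked seventh and sixth of the genes in uninjured Nf1-KO and control skin and last in injured skin.

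No member passed the test between the genotypes. In uninjured skin 0 of 10 were called, where 0.0296% of all genes were, and 1 had an unadjusted p under 0.05 in edgeR (8.34% of all genes did); DESeq2 called 0 of 10 as well. All 10 log2 fold changes of Nf1-KO over control were below 0, with a median of -0.38 beside -0.04 over all genes. They come from the same 6 libraries and are not independent of each other. Over the alternatives the sign was opposite in 16 of 200 values, none of them for a contractile gene. Cthrc1 ran from -1.22 to 1.17 and Postn from -1.20 to 1.23. Acta2 had the smallest p, with a mean of 85.4 ± 40.1 CPM in uninjured Nf1-KO and 142 ± 29.8 CPM in uninjured control skin (SD, n = 3 each), a log2 fold change of -0.74 (95% interval -1.47 to -0.00396, adjusted p = 0.594). Cnn1 was the gene whose groups did not overlap, as was the case in that direction for 6.06% of all genes. It had 15.1, 5.75 and 6.69 CPM in uninjured Nf1-KO and 16.7, 15.4 and 26.8 CPM in uninjured control libraries, a log2 fold change of -1.10 (95% interval -2.25 to 0.04, adjusted p = 0.624).

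In injured skin 0 of 10 were called, where 0.0% of all genes were, and 0 of 10 had an unadjusted p under 0.05 in edgeR, where 10.7% of all genes did; DESeq2 called 124 genes and none of the 10. The median log2 fold change was -0.05, beside 0.12 over all genes. The interval of Tagln was the narrowest, from -0.53 to 0.51 around -0.01, and that of Cthrc1 the widest, from -1.94 to 1.61. Tnc had 159, 111 and 372 CPM in injured Nf1-KO and 102, 149 and 126 CPM in injured control libraries, a log2 fold change of 0.77 (95% interval -0.54 to 2.08, adjusted p = 0.766). The first and the third injured Nf1-KO libraries lay above every injured control library, and the second lay among them.

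The difference between the injury responses of the genotypes was tested as an interaction. Again 0 of 10 were called, where 0.0% of all genes were, and 0 of 10 had an unadjusted p under 0.05 in edgeR (10.8% of all genes did); DESeq2 called 37 genes and none of the 10. Tnc had the largest estimate: the log2 injury response was 1.60 larger in Nf1-KO than in control skin (SE 0.86, 95% interval -0.33 to 3.52, adjusted p = 0.528). Over the alternatives this estimate ran from 0.51 to 2.46 and its adjusted p from 0.389 to 0.918. Acta2 was called in Nf1-KO and not in control skin, but its responses differed by 0.64 with a 95% interval from -0.38 to 1.67 (adjusted p = 0.631). A difference between the genotypes was not detectable for these genes with 3 libraries per group, and the intervals leave room for changes of several fold in the matrix genes.

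**Figure D5:**
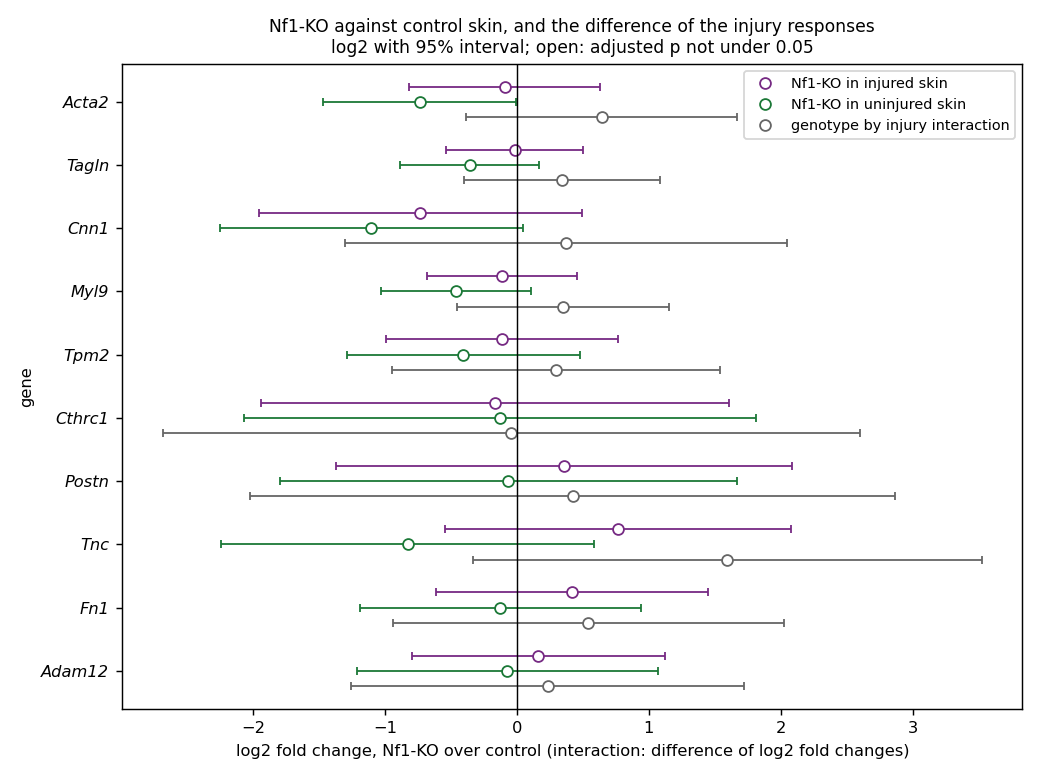
Points are log2 fold changes of Nf1-KO over control skin, injured above uninjured, and below them the difference of the injury responses, each with its 95% interval. All points are open because no gene passed an adjusted p under 0.05, and the interval of the Tnc interaction runs from -0.33 to 3.52.

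Markers of other cells of skin also moved with injury, beside all of the results above. Over all genes tested, 19.1% were higher and 18.4% lower in injured Nf1-KO skin, and 22.8% and 32.5% in injured control skin. Of 14 genes of the growing hair follicle, whose dermal sheath makes smooth muscle actin too, 14 were higher in both genotypes, with median log2 fold changes of 9.22 in Nf1-KO and 9.33 in control skin. Their summed level was 10197 to 32432 CPM in injured and 97.3 to 178 CPM in uninjured Nf1-KO skin, and 12106 to 21352 CPM in injured and 93.4 to 114 CPM in uninjured control skin. Of 10 markers of the dermal papilla, the signalling core of the follicle, 6 were higher and 1 lower in Nf1-KO and 4 higher and 1 lower in control skin. All 8 macrophage and all 8 blood endothelial markers were higher in injured Nf1-KO skin, and 7 of 8 of each in injured control skin. Of 10 keratinocyte markers, 6 were lower and none higher in Nf1-KO skin, and 5 lower and 1 higher in control skin. At least 13 of the 14 hair follicle markers had a count in every library. The part of these cells in the results for the 10 genes was not tested.

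Other genes of the same pathways were counted from lists, here and below. These counts stand beside 19.1% higher and 18.4% lower of all genes tested in Nf1-KO skin, and 22.8% and 32.5% in control skin. Of 22 other genes of the actin cytoskeleton and contraction, 11 were higher and 1 lower with injury in Nf1-KO skin, and 11 higher and 2 lower in control skin. Cald1, encoding the actin-binding caldesmon, averaged 291 ± 51.5 CPM in injured and 40.7 ± 10.6 CPM in uninjured Nf1-KO skin, and 237 ± 5.65 CPM in injured and 41.6 ± 9.17 CPM in uninjured control skin (SD, n = 3 each). Its log2 fold changes were 2.84 and 2.51 (adjusted p = 5.70e-07 and 2.13e-06). Tpm1, encoding alpha-tropomyosin, had 1.97 and 1.61, and Myh10, encoding a non-muscle myosin, had 1.84 and 1.41 in Nf1-KO and control skin. The median log2 fold change of the list was 0.73 in Nf1-KO and 0.51 in control skin. Among SRF and its 3 cofactors, Srf had log2 fold changes of 0.93 in Nf1-KO and 0.50 in control skin (adjusted p = 0.00504 and 0.0694). Mrtfa, a cofactor released by actin assembly, had 0.46 in Nf1-KO and 0.83 in control skin (adjusted p = 0.0754 and 0.00267), with no interaction called for either gene, while Myocd fell in both as given above.

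Of 22 other wound and fibrosis matrix genes, 20 were higher and 1 lower in injured Nf1-KO skin and 18 higher and 1 lower in injured control skin, with medians of 2.91 and 2.63. Vcan, encoding the proteoglycan versican, had log2 fold changes of 3.33 and 3.17 (adjusted p = 3.44e-06 and 7.15e-06). Fap, encoding fibroblast activation protein, averaged 27.5 ± 9.15 CPM in injured and 3.35 ± 0.821 CPM in uninjured Nf1-KO skin, and 14.1 ± 3.06 CPM in injured and 3.77 ± 0.592 CPM in uninjured control skin (SD, n = 3 each). Its log2 fold change was 3.03 in Nf1-KO and 1.91 in control skin (adjusted p = 2.86e-06 and 0.000158). Between the genotypes in injured skin Fap had a log2 fold change of 0.96 that was not called (adjusted p = 0.355). Loxl2, encoding a collagen cross-linking enzyme, had 4.28 in Nf1-KO and 3.43 in control skin (adjusted p = 2.33e-05 and 9.59e-05). Col1a1, Col1a2 and Lum are on this list and on the fibroblast list, so the 2 counts share genes.

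Of 17 genes of the transforming growth factor beta pathway, 9 were higher and none lower in injured Nf1-KO skin and 8 higher and none lower in injured control skin, with medians of 1.21 and 0.56. Pmepa1 and Bambi, target genes that dampen the pathway, had log2 fold changes of 3.93 and 3.55 in Nf1-KO skin (adjusted p = 0.000676 and 0.000251) and of 4.11 and 3.90 in control skin (adjusted p = 0.000414 and 0.000144). Smad3, encoding a signal transducer, had 1.31 in Nf1-KO and 1.01 in control skin (adjusted p = 0.000175 and 0.000889). Smad7, encoding an inhibitor, had 1.29 in Nf1-KO and 1.58 in control skin (adjusted p = 0.00165 and 0.000301). Of 11 receptors for fibronectin, tenascin-C and periostin among the integrins and syndecans, 6 were higher and none lower in Nf1-KO skin, and 4 were higher and 2 lower in control skin. Itgb3, a subunit of a fibronectin-binding integrin, had 2.56 and 2.31 (adjusted p = 7.98e-05 and 0.00018). Itga8, the partner of integrin beta 1 for tenascin-C and fibronectin, fell by 1.52 in control skin (adjusted p = 0.00244) and had a log2 fold change of 0.08 in Nf1-KO skin (adjusted p = 0.874). Its interaction of 1.61 was not called (adjusted p = 0.442). None of the genes on any list named here was called between the genotypes or in the interaction.

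The genes whose pattern was most like that of a member were found by Pearson correlation of log2 CPM over the 12 libraries among 13751 genes, as a description that the skin states largely set. Fn1 was closest to Islr (r = 0.996), Adam12 to C1qtnf2 (0.994), Tnc to Col4a2 (0.991), Cthrc1 to Lox (0.986) and Postn to Mmp3 (0.986). Tagln was closest to Flot2 (0.983), Acta2 to Esam, a gene of endothelial junctions (0.927), and Myl9 to Podxl (0.901). Tpm2 was closest to Pfkm and Mb, genes of muscle glycolysis and of myoglobin (0.987 and 0.985). Cnn1 was closest to Zc2hc1a and Myh11 (both 0.945). After each group's mean was taken off, Tpm2 was closest to Ckm, the muscle creatine kinase (0.953), and Fn1 to Fbn1, encoding fibrillin (0.983). Cnn1 was then closest to Slc9a3r2 (0.947), not to Myh11. Within groups Cnn1 also correlated with the members Acta2 (0.958) and Myl9 (0.897), which the search left out. These values rest on 12 libraries that share 2 skin states, and the closest gene was picked from many.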

How the data were processed

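Total RNA of whole skin was amplified with the Smart-Seq v4 kit from 10 ng and made into Nextera XT libraries, per the labels' protocols; this kit does not mark strand. The authors deposited unscaled read counts for each gene ID, checked to be whole numbers. The submitters' processing notes name mm10, HTSeq 0.5.3, HOMER, DESeq2, SAMtools and STAR 2.5.2b. Which annotation and strand setting were used for counting is not stated there. Symbols, positions and exon lengths came from GENCODE M21, which matched 53274 of 53379 IDs; the other 105 held at most 0.0454% of a library. Columns repeated between tables were equal and read once, and 1 column of no listed sample was not used.

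A single model of all 12 libraries was fitted in edgeR 4.0.16 (R 4.3.3) with 4 group means, TMM scaling, filterByExpr with a count minimum of 10 and a 2-sided quasi-likelihood F test. Benjamini-Hochberg adjustment ran over 23635 genes, and calls are at an adjusted p under 0.05. The fit was tested on simulated data. Alternatives were median-of-ratios scaling, no filter, DESeq2 1.42.0, a replicate block, the compared groups alone, a ribosomal RNA-like share covariate and leaving out libraries; subtraction of the background was added after seeing the data. The 10 genes and the lists were chosen with earlier results of these data known. Genes named from the lists are up to 3 called genes with the smallest p per comparison, or the lowest 1 if no gene passed. Not every gene so picked is printed. Values of Myh11, Smtn, Actg2, Lmod1, Col1a1 and Col1a2 were given outside this rule. Myh11 was among the genes closest in pattern to Cnn1. Likeness of pattern used log2(CPM + 0.5). Library pairs within a group differed by more than counting noise (chi-square per degree of freedom 9.55 to 87.8).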

Additional observations from a re-analysis of the deposited data

How the results depend on the processing

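No direction of a gene's injury response changed in the 20 alternatives run per gene and comparison. Signs of the genotype estimates did change, in 16 of 200 values in uninjured and 14 of 200 in injured skin. For the interaction 16 of 190 values changed sign. The number of the 10 genes called ran from 6 to 9 in Nf1-KO skin and from 6 to 9 in control skin, and stayed at 0 between the genotypes and in the interaction. Replicate numbers did not clearly pair the libraries: same-numbered libraries correlated from -0.37 to 0.41 and 4 of 18 pairs were over 0.1. The other 36 pairs correlated from -0.38 to 0.32. Of the 12 libraries, 6 correlated best with a library of their own number. With the replicate block the calls among the 10 genes stayed at 9 in Nf1-KO and 8 in control skin and at 0 elsewhere, and 1 of all genes was called between uninjured groups. Median-of-ratios scaling moved the median of all genes by -0.11 on the log2 scale in the injured against uninjured Nf1-KO comparison.

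Over all genes, the calls for injury in control skin numbered 13072, and 8279 with the ribosomal RNA-like covariate, 6329 without the first and second uninjured control libraries, and 10656 to 13496 with 1 library left out. For injury in Nf1-KO skin they numbered 8851, and 5372 to 9536 with 1 library left out. DESeq2 called 5239 genes higher and 12332 lower with injury in control skin, against 5393 and 7679 in edgeR, and 4155 and 6313 in Nf1-KO skin, against 4506 and 4345. Between uninjured groups 7 genes were called, and 27 with the compared groups alone, 60 by DESeq2, 4 with median-of-ratios scaling, 219 with no filter, 3 with the covariate, 3 without both control libraries and 0 to 12 with 1 library left out. Between injured groups 0 were called, and 124 by DESeq2, 410 with no filter, 3 with the covariate, 1 without both control libraries and 0 to 72 with 1 left out. In the interaction 0 were called, and 37 by DESeq2, 236 with no filter, 2 with the covariate, 1 without both control libraries and 0 to 2 with 1 left out. The cause was not tested. With 3 libraries per group the spread between libraries left SEs of 0.77 to 0.89 on log2 fold changes of Cthrc1 and Postn between groups. Their interaction SEs were 1.16 and 1.09.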
